A study of Mus musculus with 20 samples.

Results

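The DNA replication and mitosis genes described here are 51 named mouse genes, of 55487 genes counted, in RNA sequencing of liver. They were listed by name for their roles in the cell cycle, with no threshold on their values, although earlier results of these data were known when the list was made. They form a replication set of 29 genes, which license, copy and package DNA or drive entry into S phase, and a mitosis set of 22 genes, which condense, attach and separate chromosomes. The study compared female C57BL/6N mice aged 15 weeks in 4 groups of 5 liver samples each: Plin2+/+ fed chow, Plin2+/+ fasted for 24 h, Plin2-null fed chow and Plin2-null fasted for 24 h. Plin2 encodes perilipin 2, a protein that coats lipid droplets. The group labels of 10 livers do not give a genotype; they were read as Plin2-/- because the study's description names only Plin2+/+ and Plin2-/- mice. The allele, and whether it is lost in every tissue, are not stated in what was used here. The titles give the 20 samples different numbers, but the labels do not state that these are separate mice, so p-values measure only the spread between these samples, which may be technical. Plin2 itself checked the labels: its level was 137 to 249 TPM (a length-corrected share of a library's transcripts) in fed and 631 to 1259 TPM in fasted Plin2+/+ livers, and 12.9 to 25.0 TPM in fed and 39.1 to 96.8 TPM in fasted Plin2-null livers.

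A cell that will divide loads the MCM helicase onto replication origins in G1, fires those origins in S phase, and in mitosis separates the copied chromosomes on a spindle. E2F factors and the RB family set the transcription of most S phase genes, and the DREAM complex, B-MYB and FOXM1 that of most mitosis genes. Hepatocytes of an adult liver rest outside the cycle and rarely divide, so the liver holds few cycling cells, and these include immune and endothelial cells as well as hepatocytes.

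The promoters of the sets differ in short sequence words that E2F factors, the DREAM complex and the factor NF-Y are known to bind, and 8 promoters are printed to show them. The stretches are the 250 bases before the RefSeq transcription start on GRCm38.p6, 5′ to 3′ on the gene's strand. Capitals mark 3 kinds of word on either strand: an E2F-like word (TTTCCCGC, TTTCGCGC, TTTGCCGC or TTTGGCGC), the cell cycle homology region or CHR word (TTTGAA), and the NF-Y box (CCAAT). Mcm5 (chr8:75109259-75109508, plus strand) and Mcm6 (chr1:128359706-128359955, minus strand) stand for replication genes that fell with fasting, and Rrm2 (chr12:24708004-24708253, plus strand) for one that rose. Cdk1 (chr10:69352913-69353162, minus strand), Top2a (chr11:99024190-99024439, minus strand), Mki67 (chr7:135716380-135716629, minus strand), Cdc20 (chr4:118437344-118437593, minus strand) and Ccnb2 (chr9:70421555-70421804, minus strand) stand for mitosis genes that fell. These 8 were picked after their values were seen.
Mcm5: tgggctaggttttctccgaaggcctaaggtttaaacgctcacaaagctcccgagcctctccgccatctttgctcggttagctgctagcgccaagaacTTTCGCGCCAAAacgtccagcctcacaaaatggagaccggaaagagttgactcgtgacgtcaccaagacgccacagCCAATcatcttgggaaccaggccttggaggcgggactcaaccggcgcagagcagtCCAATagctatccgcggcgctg
Mcm6: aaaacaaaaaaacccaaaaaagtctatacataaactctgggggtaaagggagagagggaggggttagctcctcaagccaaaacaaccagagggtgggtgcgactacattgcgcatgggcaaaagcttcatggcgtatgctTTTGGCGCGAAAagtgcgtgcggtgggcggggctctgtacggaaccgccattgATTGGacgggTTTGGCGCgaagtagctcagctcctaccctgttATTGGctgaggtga
Rrm2: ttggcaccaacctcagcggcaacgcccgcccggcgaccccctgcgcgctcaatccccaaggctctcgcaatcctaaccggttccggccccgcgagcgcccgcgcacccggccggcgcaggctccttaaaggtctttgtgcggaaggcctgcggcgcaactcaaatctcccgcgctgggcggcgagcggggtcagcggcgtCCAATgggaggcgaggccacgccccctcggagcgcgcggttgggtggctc
Cdk1: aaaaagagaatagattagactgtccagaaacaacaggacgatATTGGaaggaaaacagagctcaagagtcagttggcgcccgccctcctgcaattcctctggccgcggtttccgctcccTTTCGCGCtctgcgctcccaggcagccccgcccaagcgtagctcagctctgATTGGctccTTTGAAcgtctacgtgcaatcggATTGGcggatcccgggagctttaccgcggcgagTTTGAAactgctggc
Top2a: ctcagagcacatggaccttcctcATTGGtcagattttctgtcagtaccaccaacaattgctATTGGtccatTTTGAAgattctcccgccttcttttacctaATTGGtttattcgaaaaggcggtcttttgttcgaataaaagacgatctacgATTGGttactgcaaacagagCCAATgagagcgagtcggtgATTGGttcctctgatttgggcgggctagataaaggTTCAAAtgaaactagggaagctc
Mki67: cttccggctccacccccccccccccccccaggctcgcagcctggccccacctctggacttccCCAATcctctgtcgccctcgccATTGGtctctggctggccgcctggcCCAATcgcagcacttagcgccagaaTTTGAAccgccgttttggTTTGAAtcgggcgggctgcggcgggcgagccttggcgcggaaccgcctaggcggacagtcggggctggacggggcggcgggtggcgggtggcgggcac
Cdc20: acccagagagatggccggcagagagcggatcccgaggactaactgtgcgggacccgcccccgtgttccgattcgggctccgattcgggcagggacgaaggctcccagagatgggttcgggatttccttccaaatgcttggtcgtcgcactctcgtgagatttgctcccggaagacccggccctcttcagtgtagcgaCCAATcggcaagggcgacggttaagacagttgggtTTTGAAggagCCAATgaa
Ccnb2: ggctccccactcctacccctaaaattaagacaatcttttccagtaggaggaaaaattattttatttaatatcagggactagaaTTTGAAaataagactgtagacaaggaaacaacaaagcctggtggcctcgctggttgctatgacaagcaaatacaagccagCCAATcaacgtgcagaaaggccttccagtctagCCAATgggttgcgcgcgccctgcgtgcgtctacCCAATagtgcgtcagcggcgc

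In Mcm5, 2 overlapping E2F-like words on opposite strands lie 153 to 142 bases before the start. Mcm6 holds 3 such words, of which 2 overlap at 110 to 99 bases and 1 lies at 47 to 40 bases before the start. Cdk1 is the mitosis gene with an E2F-like word, at 131 to 124 bases, and it also holds CHR words at 71 to 66 and at 15 to 10 bases. Rrm2 holds neither an E2F-like word nor a CHR word in these letters, and 1 NF-Y box.

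Windows of 300 bases, 250 before and 50 after the start, could be matched by symbol for 41 of the 51 members: 23 replication and 18 mitosis genes. Mcm4, Gins1, Gins2, Pole, Ccnd1, Ccne2, Ccna2, Aurkb, Kif20a and Tpx2 had none. An E2F-like word stood in 10 of the 23 replication windows (43.5%: Cdc6, Cdt1, Lig1, Mcm3, Mcm5, Mcm6, Mcm7, Orc1, Pold1 and Uhrf1), in 1 of the 18 mitosis windows (5.56%) and in 2.6% of 27025 genes. The CHR word stood in 4 replication genes (17.4%), 13 mitosis genes (72.2%) and 20.2% of all genes. NF-Y boxes stood in 60.9%, 88.9% and 41.1%, and every mitosis window with a CHR word held an NF-Y box too (72.2%, against 7.97% of all genes). Among replication genes tested below, 7 of 9 with an E2F-like word and 5 of 13 without one were called lower after fasting in Plin2+/+ livers. In Plin2-null livers the counts were 4 of 9 and 4 of 13. Over all genes tested, 21.7% were called lower in Plin2+/+ and 18.1% in Plin2-null livers. Differences between genes with and without a word were not tested. For the CHR word in mitosis genes the counts were 11 of 12 with it and 4 of 5 without it in Plin2+/+ livers. In Plin2-null livers they were 11 of 12 and 2 of 5. The median log2 fold changes with and without it were -1.81 and -1.82 in Plin2+/+ livers, and -1.28 and -1.33 in Plin2-null livers. A match describes letters and does not show that a factor binds there.

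**Figure D1:**
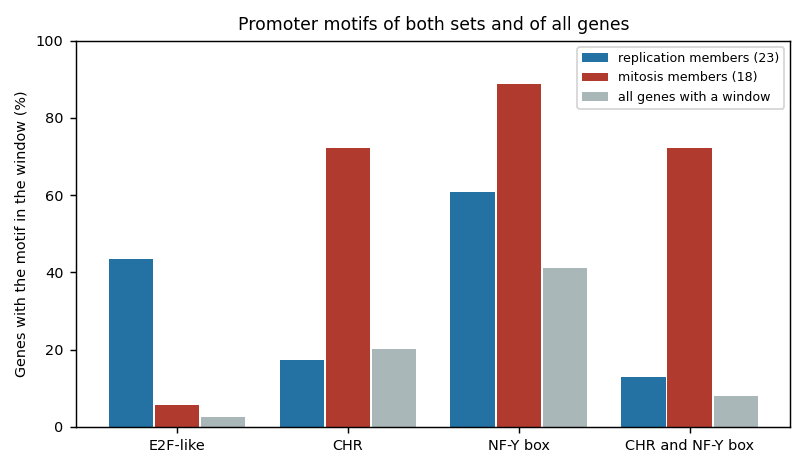
Share of promoter windows (y axis, %) that hold each word on either strand, for 23 replication genes, 18 mitosis genes and all 27025 genes with a window. E2F-like words are most frequent in the replication set (43.5%) and CHR words in the mitosis set (72.2%).

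The libraries held 25506471 to 65579038 counts each, and a filter on low counts left 16312 genes to test. Of the members, 49 passed (28 replication and 21 mitosis genes). Orc1, a subunit of the origin recognition complex, had 0 to 3 counts in every library, and Ttk, the checkpoint kinase MPS1, had 0 to 29. A gene that passes only through its high group is more likely to differ, so the counts below describe the members tested. Hepatocyte markers (Alb, Ttr, Apoa1, Fgb, Cps1 and Tat) summed to 82535 to 167891 TPM in all libraries. Of the 51 members, 19 share exonic bases with another annotated gene. The libraries were strand-specific, but no source used here says whether reads were counted by strand. Within the shared bases, reads of a member and of an opposite-strand neighbour therefore cannot be told apart. Such a neighbour exists for Orc1 (Gm12743), Pole (Gm15792), E2f8 (Gm2788), Plk1 (Gm44985), Tk1 (Afmid), Fen1 (Tmem258 and Gm10143), Gins2 (Gse1), Ccnd1 (LTO1), Ccne2 (Ints8), Chaf1a (Ubxn6), Lig1 (Zswim9), Mcm7 (Cops6 and Ap4m1), Cdc45 (Ufd1), Cdc20 (Elovl1), Ccna2 (Exosc9), Kif20a (Cdc23), Nusap1 (Oip5) and Prc1 (Rccd1).

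A pair of fed libraries stood apart in these genes. Plin2-null fed replicate 2 held the highest value of its group for 21 of 21 mitosis genes and 22 of 28 replication genes tested. Plin2+/+ fed replicate 4 held it for 20 of 21 mitosis genes and 9 of 28 replication genes, while Plin2+/+ fed replicate 2 held it for 14 of 28 replication genes. Fasting calls of members that changed without either library of this pair are given below with their value without it.

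The members were scarce transcripts. In fed Plin2+/+ livers the mean level of the 29 replication genes ran from 0.0141 TPM (Orc1) to 73.4 TPM (Ccnd1), with a median of 1.91 TPM. The 22 mitosis genes ran from 0.142 TPM (Cenpf) to 1.10 TPM (Ccnb2), with a median of 0.546 TPM, and 20 of them lay under 1 TPM. Summed over the mitosis set, the level was 12.8 ± 5.66 TPM (SD, n = 5) in fed and 3.79 ± 0.732 TPM in fasted Plin2+/+ livers, and 11.7 ± 6.31 TPM in fed and 4.17 ± 0.981 TPM in fasted Plin2-null livers. Summed over the replication set without Ccnd1, it was 79.3 ± 9.80, 54.3 ± 7.65, 76.1 ± 15.7 and 56.6 ± 7.44 TPM in the same order. TPM also fell with fasting over all genes tested. The median log2 fold change on log2(TPM + 0.1) was -0.16 in Plin2+/+ and -0.28 in Plin2-null livers. The sums are not corrected for that shift. In bulk tissue, fewer cycling cells and less of these RNAs per cell cannot be told apart.

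**Figure D2:**
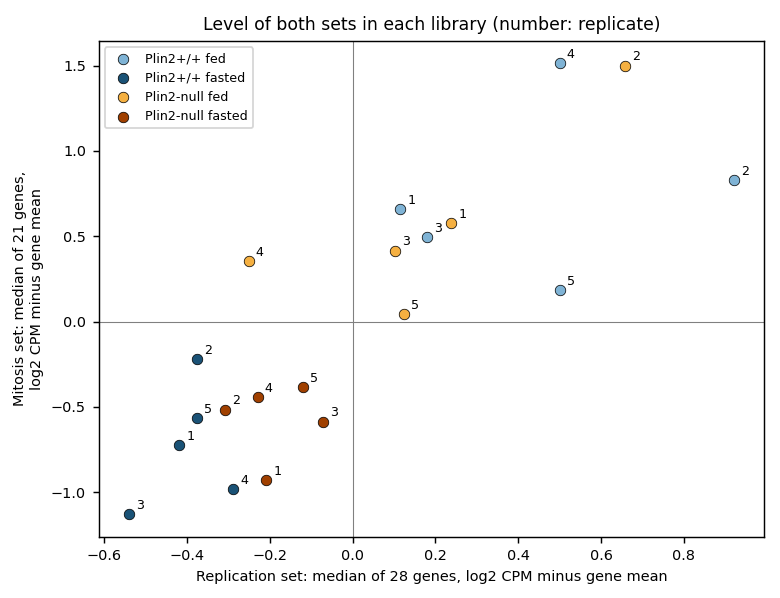
Each point is 1 library, numbered by replicate: x axis, median over 28 replication genes of log2 CPM (counts scaled to library size) minus the gene's mean over all libraries; y axis, the same for 21 mitosis genes. Fed libraries lie at 0.04 to 1.51 on the mitosis axis and fasted ones at -1.13 to -0.22, and Plin2+/+ fed replicate 4 (1.51) and Plin2-null fed replicate 2 (1.50) are the highest. On the replication axis, Plin2-null fed replicate 4 (-0.25) lies within the range of the fasted Plin2-null libraries (-0.31 to -0.07).

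The effect of a 24 h fast was tested within each genotype, first in Plin2+/+ livers. Most mitosis genes and the larger share of the replication genes were lower after fasting. Of 28 replication genes, 16 fell, 2 rose (Rrm2 and Mcm7) and 10 were not called, with a median log2 fold change of -0.95. Of 21 mitosis genes, 19 fell and none rose, with a median of -1.77, and Kif23 and Birc5 were not called. The fold change was below 0 in all 21, against 50.5% of all genes. Some of these genes had few counts in fasted Plin2+/+ libraries, such as Cdc20 (1 to 7, against 11 to 55 in fed ones). They could pass the filter on low counts through fed libraries, which favours a fall, so this count carries no test. Over all genes tested in this comparison, 42.6% were called, 20.9% higher and 21.7% lower, and the median log2 fold change was -0.01. When libraries were scaled by their size alone the median was -0.16, with 1854 genes called higher and 4173 lower in place of 3416 and 3541; in the replication set 17 fell and 1 rose, and in the mitosis set 20 fell. Scaled counts of fed and fasted libraries did not overlap for 14 replication and 14 mitosis genes that were lower, against 13.5% of all genes, and for 2 replication genes that were higher, against 13.2%.

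In Plin2-null livers, 10 of 28 replication genes fell, 3 rose (Rrm2, Mcm7 and Cdt1) and 15 were not called, with a median log2 fold change of -0.52. Of 21 mitosis genes, 16 fell and none rose, with a median of -1.30; Ccnb1, Bub1b, Birc5, Kif20a and Nusap1 were not called. Again the fold change was below 0 in all 21, against 50.4% of all genes, a count with the same limit. Over all genes tested, 36.1% were called, 18.0% higher and 18.1% lower, and the median was -0.01. Scaling by library size alone gave a median of -0.21, 1376 genes higher and 4243 lower in place of 2942 and 2954; 15 replication genes then fell, 1 rose, and 19 mitosis genes fell. Groups did not overlap for 5 replication and 9 mitosis genes that were lower, against 11.8% of all genes, and for 1 replication gene that was higher, against 12.6%. Without Plin2-null fed replicate 2, the count of mitosis genes that fell was 8 rather than 16, and in the replication set 5 fell and 4 rose. Fitted without both fed libraries that stood apart, which were picked after seeing the data, 10 mitosis genes fell in Plin2-null and 18 in Plin2+/+ livers.

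**Figure D3:**
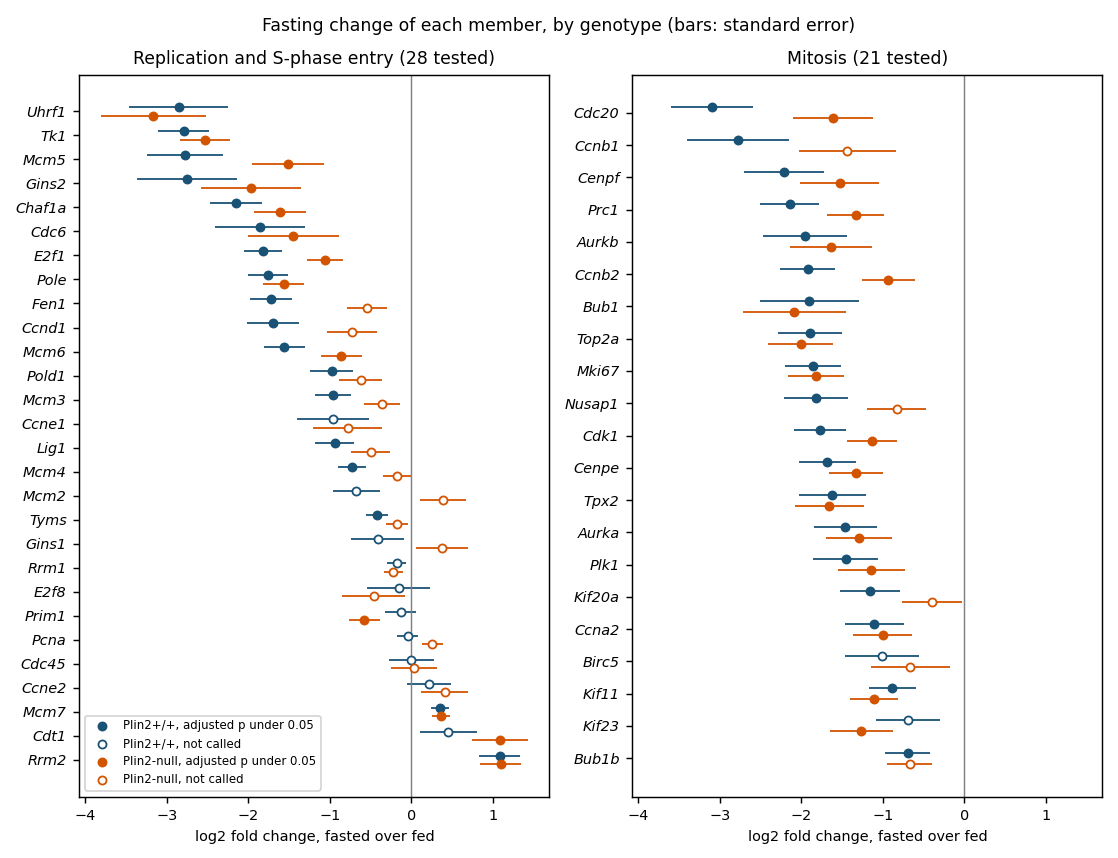
Log2 fold change of fasted over fed livers (x axis, edgeR) with its SE for each replication and mitosis gene tested, in Plin2+/+ and Plin2-null livers; filled points have an adjusted p under 0.05. All 21 mitosis genes lie below 0 in both genotypes, while replication genes lie on both sides.

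Both genotypes had 9 replication genes called lower (Uhrf1, Chaf1a, Mcm5, Mcm6, Pole, Cdc6, Gins2, Tk1 and E2f1) and 15 mitosis genes (Cdc20, Kif11, Cdk1, Aurka, Aurkb, Top2a, Cenpe, Cenpf, Bub1, Tpx2, Ccna2, Ccnb2, Plk1, Mki67 and Prc1), where 13.2% of all genes were lower in both. Rrm2 and Mcm7 were called higher in both, as were 12.6% of all genes. No member was called in opposite directions, and 0.0613% of all genes were.

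Origin licensing and the replicative helicase came first in the replication set. Of 11 genes tested, 6 fell and 1 rose in Plin2+/+ livers, and 4 fell and 2 rose in Plin2-null livers. Counts of this and the gene groups below stand against 21.7% of all genes lower and 20.9% higher in Plin2+/+ livers. In Plin2-null livers these shares were 18.1% and 18.0%. Mcm5, a subunit of the MCM2-7 helicase, stood at 0.92, 2.66, 0.986, 2.85 and 2.14 TPM in the fed Plin2+/+ livers and at 0.299, 0.201, 0.194, 0.12 and 0.432 TPM in the fasted ones. Plin2-null livers held 1.23, 3.26, 1.05, 0.508 and 1.01 TPM when fed and 0.401, 0.269, 0.559, 0.266 and 0.445 TPM when fasted. The Plin2+/+ groups did not overlap, whereas the lowest Plin2-null fed liver lay inside the fasted range and replicate 2 lay far above the other fed ones. The log2 fold change in Plin2-null livers was -1.51 ± 0.44 (SE; adjusted p = 0.0111), and without that library -0.99, with an adjusted p of 0.0573.

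Mcm6, from the same helicase ring, stood at 2.15, 3.6, 1.92, 4.13 and 2.59 TPM in fed and 1.08, 0.907, 0.718, 0.901 and 0.74 TPM in fasted Plin2+/+ livers, a log2 fold change of -1.56 ± 0.26 (SE; adjusted p = 4.31e-05). In Plin2-null livers the values were 2.12, 3.94, 1.73, 1.43 and 1.71 TPM and 0.889, 0.745, 0.916, 0.983 and 1.34 TPM, a log2 fold change of -0.86 ± 0.25 (SE; adjusted p = 0.011). Every fed liver of both genotypes lay above every fasted liver of its genotype on the TPM scale. On scaled counts, fed and fasted Plin2-null livers overlapped for Mcm6, as for all genes of this group that fell there. Without Plin2-null fed replicate 2 the Plin2-null value was -0.57, with an adjusted p of 0.0579. Mcm3 and Mcm4, other subunits of the ring, fell by 0.96 and 0.73 on the log2 scale in Plin2+/+ livers. In Plin2-null livers Mcm3 had a log2 fold change of -0.36 ± 0.22 (adjusted p = 0.208) and Mcm4 one of -0.17 ± 0.17 (adjusted p = 0.451). Without fed replicate 2 these were -0.09 and -0.03.

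Unlike these subunits, Mcm7 and Mcm2 were not called lower in either genotype in the main fit. Mcm7 stood at 7.67, 9.66, 6.65, 9.02 and 9.69 TPM in fed and 10.6, 7.98, 8.88, 9.46 and 12.2 TPM in fasted Plin2+/+ livers, and at 9.84, 11.1, 7.97, 8.28 and 7.46 and 9.73, 9.53, 6.99, 10.4 and 10.7 TPM in Plin2-null livers. Its TPM overlapped in both genotypes, although its scaled counts gave log2 fold changes of 0.35 ± 0.11 (SE; adjusted p = 0.0139) and 0.37 ± 0.11 (SE; adjusted p = 0.0118). Scaled by library size alone, the fold changes were 0.19 and 0.15 and neither was called, and on the log2(TPM + 1) scale they were 0.18 and 0.08. Mcm2 was not called, at -0.67 ± 0.29 in Plin2+/+ (adjusted p = 0.0628) and 0.39 ± 0.28 in Plin2-null livers (adjusted p = 0.297). In Plin2+/+ livers its value was near that of Mcm4. DESeq2 (-0.68, adjusted p = 0.0481) and library size alone (-0.83, adjusted p = 0.0375) called Mcm2 lower there. It was called lower in Plin2+/+ livers when Plin2+/+ fed replicate 1 (-0.84), fed replicate 3 (-0.81), fasted replicate 5 (-0.78) or Plin2-null fed replicate 2 (-0.67, adjusted p = 0.0477) was left out, and its Plin2-null value was 0.62 without the last of these.

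Cdc6 loads the helicase onto origins together with Cdt1. Cdc6 stood at 0.152, 0.428, 0.0916, 0.351 and 0.218 TPM in fed and 0.096, 0.0656, 0.0246, 0.0731 and 0.0396 TPM in fasted Plin2+/+ livers, from 2 to 43 counts a library, with a log2 fold change of -1.85 ± 0.55 (SE; adjusted p = 0.00961). These groups overlapped slightly on the TPM scale. In Plin2-null livers it stood at 0.0917, 0.578, 0.162, 0.0416 and 0.15 and 0.0835, 0.0725, 0.0244, 0.0642 and 0.0617 TPM, and the log2 fold change of -1.45 ± 0.56 (SE; adjusted p = 0.0487) fell to -0.64, with an adjusted p of 0.344, without fed replicate 2. Its call there was kept in 6 of the 20 fits that each left out 1 library.

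Cdt1 moved the other way from Cdc6. It stood at 0.534, 0.753, 0.49, 0.554 and 0.229 TPM in fed and 0.834, 0.544, 0.955, 0.926 and 1.15 TPM in fasted Plin2-null livers, where it rose by 1.09 ± 0.34 on the log2 scale (adjusted p = 0.0157). In Plin2+/+ livers it stood at 0.206, 0.563, 0.305, 0.368 and 0.83 and 0.52, 0.316, 0.554, 0.7 and 0.814 TPM, with a log2 fold change of 0.46 ± 0.35 that was not called (adjusted p = 0.305). Its fed and fasted values overlapped in both genotypes. The Plin2-null call was lost when libraries were scaled by size alone (0.86, adjusted p = 0.0576) and without Plin2-null fasted replicate 3 (0.91, adjusted p = 0.0562).

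Gins2, a subunit of the GINS part of the active helicase, stood at 0.206, 0.889, 0.364, 0.332 and 0.405 TPM in fed and 0.0153, 0.0558, 0.0786, 0.0933 and 0.0506 TPM in fasted Plin2+/+ livers, a log2 fold change of -2.75 ± 0.61 (SE; adjusted p = 0.00102). Plin2-null livers held 0.234, 0.834, 0.22, 0.0354 and 0.239 and 0.107, 0.0309, 0.0156, 0.0683 and 0.105 TPM, a log2 fold change of -1.97 ± 0.61 (SE; adjusted p = 0.0154). Fed values lay above all fasted ones in Plin2+/+, and in Plin2-null livers fed replicate 4 lay among the fasted ones. Without Plin2-null fed replicate 2 the latter value was -1.26 (adjusted p = 0.0953). Gins1, another GINS subunit, and Cdc45, which completes the helicase, were not called in either genotype; Cdc45 had log2 fold changes of 0.00 ± 0.27 and 0.03 ± 0.28.

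Of 6 genes for the polymerases, clamp and ligase, 4 fell in Plin2+/+ livers (Pole, Pold1, Fen1 and Lig1) and 2 in Plin2-null livers (Pole and Prim1). Pole, the catalytic subunit of the leading-strand polymerase, stood at 0.436, 0.872, 0.424, 0.719 and 0.48 TPM in fed and 0.231, 0.154, 0.11, 0.171 and 0.111 TPM in fasted Plin2+/+ livers. In Plin2-null livers it stood at 0.429, 0.771, 0.618, 0.422 and 0.421 and 0.143, 0.13, 0.114, 0.18 and 0.169 TPM. All fed livers lay above all fasted livers across both genotypes, with log2 fold changes of -1.76 ± 0.25 (SE; adjusted p = 6.69e-06) and -1.57 ± 0.25 (SE; adjusted p = 3.77e-05).

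Fen1 removes the flaps of Okazaki fragments before Lig1 seals them. Fen1 stood at 3.89, 3.5, 2.11, 2.28 and 3.82 TPM in fed and 0.751, 0.598, 0.612, 1.03 and 1.34 TPM in fasted Plin2+/+ livers, and its log2 fold change was -1.72 ± 0.26 (SE; adjusted p = 1.35e-05). Among Plin2-null livers it was 3.54, 2.77, 2.1, 1.5 and 2.61 and 1.11, 1.12, 1.08, 1.59 and 2.22 TPM, with a log2 fold change of -0.54 ± 0.25 that was not called (adjusted p = 0.0907). The groups did not overlap in Plin2+/+ and overlapped in Plin2-null livers. Lig1 fell by 0.94 and Pold1, the lagging-strand polymerase subunit, by 0.98 on the log2 scale in Plin2+/+ livers (adjusted p = 0.00328 and 0.00504). In Plin2-null livers their values were -0.50 ± 0.24 (adjusted p = 0.108) and -0.62 ± 0.26 (adjusted p = 0.0674). Without fed replicate 2 that of Lig1 was -0.26. Scaled by library size alone, Fen1 (-0.74), Lig1 (-0.75) and Pold1 (-0.81) were called in Plin2-null livers (adjusted p = 0.0374, 0.0144 and 0.0344). They were also called there on the log2(TPM + 1) and log2(TPM + 0.1) scales. With the GC trend removed, Fen1 (-0.59, adjusted p = 0.0368) and Pold1 (-0.82, adjusted p = 0.000241) were called. In Plin2-null livers single libraries also decided whether these genes passed: Fen1 was called without fed replicate 4 (-0.68) or fasted replicate 5 (-0.70), Lig1 without fasted replicate 3 (-0.71), and Pold1 without fed replicate 4 (-0.75) or fasted replicate 4 (-0.84).

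Pcna, the sliding clamp, was among the most abundant members, at 19.4, 18.9, 16.6, 19.2 and 18.6 TPM in fed and 17, 14.3, 12.5, 18.9 and 18.2 TPM in fasted Plin2+/+ livers. It stood at 15.9, 24.2, 18.1, 16 and 15.6 and 16.1, 16.2, 16.2, 19.2 and 18.9 TPM in Plin2-null livers. Fed and fasted values overlapped in both genotypes, and its log2 fold changes of -0.04 ± 0.13 and 0.26 ± 0.13 were not called (adjusted p = 0.809 and 0.114). Without Plin2-null fed replicate 2, which held the 24.2 TPM, the latter was 0.37 and was called (adjusted p = 0.0255). Prim1, the primase subunit, had a log2 fold change of -0.13 ± 0.19 in Plin2+/+ (adjusted p = 0.605) and -0.57 ± 0.19 (SE; adjusted p = 0.0228) in Plin2-null livers, where it was not called without fed replicate 2 (-0.48, adjusted p = 0.0703), fed replicate 4 (-0.51, adjusted p = 0.0573) or fasted replicate 4 (-0.43, adjusted p = 0.0669).

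Nucleotide supply held both the fall and the rise with the smallest adjusted p of the replication set in each genotype. Tk1, the S phase thymidine kinase of the salvage pathway, stood at 6.37, 10.9, 14.7, 10.1 and 7.5 TPM in fed and 0.833, 1.47, 0.694, 2.17 and 1.29 TPM in fasted Plin2+/+ livers, and at 7.55, 9.82, 12.1, 8.13 and 5.98 and 1.18, 1.18, 0.761, 1.38 and 1.8 TPM in Plin2-null livers. The lowest fed liver held 5.98 TPM and the highest fasted liver 2.17 TPM, so fed and fasted groups were far apart. The log2 fold changes were -2.79 ± 0.31 (SE; adjusted p = 6.8e-07), 6.94-fold lower, and -2.53 ± 0.31 (SE; adjusted p = 2.89e-06), 5.77-fold lower.

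Rrm2, the small subunit of ribonucleotide reductase, was higher in fasted livers. It stood at 3.06, 3.08, 1.94, 3.68 and 2.72 TPM in fed and 5.66, 6.22, 4.56, 4.9 and 5.88 TPM in fasted Plin2+/+ livers, and at 2.44, 3.82, 2.16, 3.58 and 2.19 and 5.72, 2.74, 6.63, 4.12 and 4.37 TPM in Plin2-null livers. The Plin2+/+ groups did not overlap, and in Plin2-null livers fasted replicate 2 (2.74 TPM) lay among the fed ones. It rose by 1.09 ± 0.25 (SE; adjusted p = 0.0014) and 1.10 ± 0.25 (SE; adjusted p = 0.00176) on the log2 scale, and these calls held in all 31 alternative fits of each comparison. Rrm1, the large subunit, was not called, at -0.18 ± 0.11 (adjusted p = 0.216) and -0.22 ± 0.12 (adjusted p = 0.141). It was called lower in Plin2+/+ livers with the GC trend removed (-0.30, adjusted p = 0.0417). In Plin2-null livers Rrm1 was called lower with library size alone (-0.44, adjusted p = 0.0169). The log2(TPM + 1) and log2(TPM + 0.1) scales called it there too (adjusted p = 0.0229 and 0.0251). Tyms, thymidylate synthase, fell by 0.42 on the log2 scale in Plin2+/+ livers (adjusted p = 0.0154; 0.052 without Plin2+/+ fasted replicate 3) and had -0.18 ± 0.13 in Plin2-null livers (adjusted p = 0.313).

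The copying of chromatin marks and nucleosomes showed large falls in both genotypes. Uhrf1, which guides the maintenance of DNA methylation behind the fork, stood at 0.338, 0.769, 0.262, 1.02 and 0.623 TPM in fed and 0.0737, 0.0895, 0.0454, 0.0224 and 0.114 TPM in fasted Plin2+/+ livers, and at 0.422, 1.85, 0.249, 0.187 and 0.261 and 0.0171, 0.0594, 0.0749, 0.0657 and 0.0379 TPM in Plin2-null livers. Groups did not overlap, but fasted livers held only 1 to 10 counts a library. The log2 fold changes were -2.86 ± 0.61 (SE; adjusted p = 0.000733) and -3.16 ± 0.65 (SE; adjusted p = 0.000638), the latter -2.14 (adjusted p = 0.00191) without Plin2-null fed replicate 2. Chaf1a, a subunit of the chromatin assembly factor, fell by 2.15 and 1.61 on the log2 scale (adjusted p = 1.61e-05 and 0.000391).

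E2F factors and the G1 to S cyclins were mixed, with 2 of 5 genes lower in Plin2+/+ and 1 of 5 in Plin2-null livers. The latter share, 20.0%, was near the 18.1% of all genes lower in Plin2-null livers. E2f1, an activator of S phase genes, stood at 1.34, 2.51, 1.49, 2.78 and 1.82 TPM in fed and 0.577, 0.447, 0.409, 0.545 and 0.547 TPM in fasted Plin2+/+ livers, and at 1.52, 2.42, 1.65, 1.93 and 1.22 and 0.646, 0.561, 0.384, 1.12 and 0.785 TPM in Plin2-null livers. All fed livers lay above all fasted ones, with log2 fold changes of -1.82 ± 0.23 (SE; adjusted p = 1.69e-06) and -1.06 ± 0.22 (SE; adjusted p = 0.000776). E2f8, a repressor of E2F targets, ranged from 1.47 to 8.42 TPM over all livers and was not called (log2 fold change -0.15 ± 0.39 and -0.46 ± 0.39).

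Ccnd1, cyclin D1, the partner of CDK4 and CDK6 in G1, was the most abundant member. It stood at 68.7, 119, 43.2, 52.3 and 83.9 TPM in fed and 35.5, 11.3, 10.3, 14.1 and 36.3 TPM in fasted Plin2+/+ livers, which did not overlap, with a log2 fold change of -1.69 ± 0.32 (SE; adjusted p = 0.000287). In Plin2-null livers it stood at 85.2, 66.6, 42.4, 82.1 and 98.4 and 38.5, 30.9, 26, 36.9 and 54.9 TPM, which overlapped, with a log2 fold change of -0.73 ± 0.31 that was not called (adjusted p = 0.0733). DESeq2 called this Plin2-null value (-0.74, adjusted p = 0.0330), as did edgeR without Plin2-null fed replicate 3 (-0.87, adjusted p = 0.0381). It was also called with library size alone (-0.94, adjusted p = 0.0463) and with only the groups compared (-0.74, adjusted p = 0.0112). The log2(TPM + 1) and log2(TPM + 0.1) scales called it too (adjusted p = 0.0357 and 0.0404). The E cyclins, partners of CDK2, were not called: Ccne1 had -0.96 ± 0.44 and -0.78 ± 0.42, and Ccne2 had 0.22 ± 0.27 and 0.41 ± 0.29. Ccne1 was called lower in Plin2+/+ livers without fasted replicate 1 (-1.25, adjusted p = 0.0451) and by limma on log2(TPM + 0.1) (-0.81, adjusted p = 0.0396). In Plin2-null livers limma called it lower on log2(TPM + 1) and log2(TPM + 0.1) (adjusted p = 0.0316 and 0.0461).

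**Figure D4:**
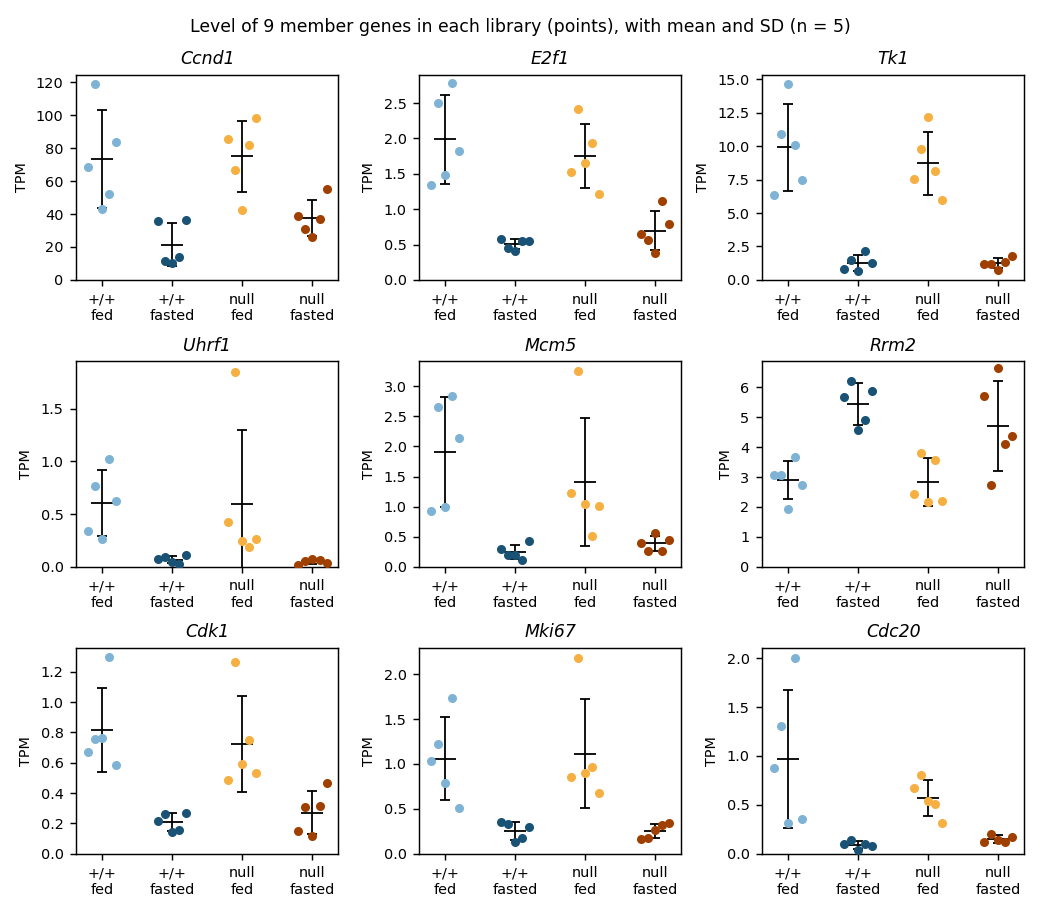
Level in TPM (y axis, from 0) of 9 genes in each library (points), with the mean and SD of 5 livers per group. Tk1 and E2f1 separate fed from fasted livers in both genotypes, Rrm2 is higher when fasted, and Ccnd1 overlaps between fed and fasted Plin2-null livers.

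In the mitosis set, the cyclins and CDK1 fell in 4 of 4 genes in Plin2+/+ and 3 of 4 in Plin2-null livers. Cdk1, the kinase that drives entry into mitosis, stood at 0.674, 0.759, 0.766, 1.3 and 0.586 TPM in fed and 0.216, 0.263, 0.144, 0.155 and 0.266 TPM in fasted Plin2+/+ livers, and at 0.486, 1.26, 0.591, 0.749 and 0.529 and 0.147, 0.308, 0.116, 0.317 and 0.469 TPM in Plin2-null livers. Every fed liver lay above every fasted one on the TPM scale, by the least in Plin2-null livers (0.486 against 0.469 TPM). On scaled counts, 1 of the 4 genes in this group was lower without overlap in Plin2-null livers. The log2 fold changes were -1.77 ± 0.32 (SE; adjusted p = 0.00012) and -1.13 ± 0.31 (SE; adjusted p = 0.00684), and both calls held in all 31 alternative fits.

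Cyclin B1 and cyclin B2 are the activating partners of CDK1. Ccnb1 stood at 0.436, 0.321, 0.227, 0.952 and 0.135 TPM in fed and 0.0893, 0.0543, 0.0306, 0.0453 and 0.0328 TPM in fasted Plin2+/+ livers, a log2 fold change of -2.77 ± 0.63 (SE; adjusted p = 0.00113). In Plin2-null livers it stood at 0.341, 0.436, 0.214, 0.189 and 0.155 and 0, 0.06, 0, 0.146 and 0.191 TPM, and -1.44 ± 0.60 was not called (adjusted p = 0.0635). Its counts were 0 to 15 in the fasted Plin2-null libraries, which overlapped the fed ones. Ccnb2 fell by 1.92 (adjusted p = 9.37e-05) and 0.93 (adjusted p = 0.0307) on the log2 scale, with 3 to 37 counts over all libraries. Ccna2, cyclin A2, fell by 1.10 and 1.00 (adjusted p = 0.0177 and 0.0354). Without Plin2-null fed replicate 2 neither was called in Plin2-null livers, at -0.70 (adjusted p = 0.112) and -0.56 (adjusted p = 0.201), and without Plin2+/+ fed replicate 4 or fasted replicate 3 Ccna2 was not called in Plin2+/+ livers (-0.79 and -0.96, adjusted p = 0.0763 and 0.0514). Ccnb2 also lost its Plin2-null call without fed replicate 4 (-0.85) and without fasted replicate 1 (-0.92), 4 (-0.89) or 5 (-0.86), at adjusted p of 0.0537 to 0.0711. Ccna2 lost its Plin2-null call without fasted replicate 2 (-0.96), 3 (-0.94) or 5 (-0.997), at adjusted p of 0.0623 to 0.0738. Ccnb1 was called in Plin2-null livers without Plin2+/+ fed replicate 4 (-1.46, adjusted p = 0.0394) or Plin2-null fasted replicate 5 (-1.99, adjusted p = 0.0262). It was also called there by DESeq2 (-1.52, adjusted p = 0.0336) and limma voom (-2.12, adjusted p = 0.0245). Library size alone (-1.60, adjusted p = 0.0463) and log2(TPM + 0.1) (-1.11, adjusted p = 0.0157) called it too.

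All 4 chromosome genes fell in both genotypes. Mki67, the Ki-67 protein that coats mitotic chromosomes and serves as a proliferation marker, stood at 1.04, 1.22, 0.788, 1.73 and 0.514 TPM in fed and 0.356, 0.334, 0.128, 0.171 and 0.295 TPM in fasted Plin2+/+ livers, and at 0.851, 2.19, 0.896, 0.965 and 0.675 and 0.166, 0.176, 0.26, 0.317 and 0.348 TPM in Plin2-null livers. The fed libraries that stood apart held 1.73 and 2.19 TPM, and no fasted liver exceeded 0.356 TPM, below the lowest fed liver at 0.514 TPM. The log2 fold changes were -1.86 ± 0.35 (SE; adjusted p = 0.000191), 3.62-fold lower, and -1.82 ± 0.35 (SE; adjusted p = 0.000318), 3.53-fold lower. Without the highest fed library of each genotype they were -1.64 and -1.46 (adjusted p = 0.00116 for the latter).

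Top2a, the topoisomerase that untangles sister chromatids, stood at 1.05, 0.906, 0.531, 1.12 and 0.51 TPM in fed and 0.244, 0.275, 0.0572, 0.191 and 0.192 TPM in fasted Plin2+/+ livers, and at 0.638, 1.99, 0.677, 0.611 and 0.413 and 0.0888, 0.189, 0.134, 0.242 and 0.215 TPM in Plin2-null livers. The groups did not overlap in either genotype, and the 1.99 TPM of Plin2-null fed replicate 2 stood well above its group. It fell by 1.90 and 2.00 on the log2 scale (adjusted p = 0.000559 and 0.00049), and by 1.48 in Plin2-null livers without that library. Cenpe, a kinetochore motor, and Cenpf, a kinetochore protein, fell by 1.68 and 2.21 in Plin2+/+ and by 1.33 and 1.53 in Plin2-null livers. Cenpf was not called in Plin2-null livers without fed replicate 2 (-1.19, adjusted p = 0.068).

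Checkpoint and anaphase genes fell in 3 of 3 tested in Plin2+/+ and 2 of 3 in Plin2-null livers. Cdc20, the activator of the anaphase-promoting complex, stood at 0.877, 1.31, 0.313, 2 and 0.355 TPM in fed and 0.101, 0.143, 0.0345, 0.102 and 0.0739 TPM in fasted Plin2+/+ livers, and at 0.673, 0.809, 0.539, 0.504 and 0.314 and 0.117, 0.203, 0.137, 0.12 and 0.173 TPM in Plin2-null livers. Groups did not overlap, although fasted libraries held only 1 to 7 counts. The log2 fold changes were -3.10 ± 0.50 (SE; adjusted p = 3.87e-05), 8.55-fold lower, and -1.61 ± 0.49 (SE; adjusted p = 0.0131). Of the checkpoint kinases, Bub1 fell by 1.90 and 2.08 on the log2 scale (adjusted p = 0.0142 and 0.0126), and without Plin2-null fed replicate 2 its Plin2-null value was -1.46 (adjusted p = 0.0709). Bub1b, which encodes BUBR1, passed at an adjusted p of 0.0478 in Plin2+/+ livers (log2 fold change -0.69 ± 0.28), a call kept in 7 of 20 fits that each left out 1 library; without Plin2+/+ fed replicate 4 it was -0.61 (adjusted p = 0.0997). In Plin2-null livers Bub1b had -0.67 ± 0.27 (adjusted p = 0.0589), and -0.36 without fed replicate 2. It was called there without fed replicate 3 (-0.75) or fed replicate 5 (-0.84). DESeq2 (-0.68, adjusted p = 0.0453), library size alone (-0.88, adjusted p = 0.0204) and removal of the GC trend (-0.69, adjusted p = 0.0442) also called it there. So did log2(TPM + 1), log2(TPM + 0.1) and a filter of 1 CPM in 5 libraries.

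The mitotic kinases and the chromosomal passenger complex fell in 3 of 4 genes in each genotype. Aurkb, the kinase of that complex, stood at 0.371, 0.265, 0.181, 0.647 and 0.257 TPM in fed and 0.0426, 0.0518, 0.0656, 0.0973 and 0.141 TPM in fasted Plin2+/+ livers, and at 0.244, 0.803, 0.252, 0.172 and 0.222 and 0.222, 0.0644, 0.0217, 0.076 and 0.0731 TPM in Plin2-null livers. Its Plin2+/+ groups did not overlap, and in Plin2-null livers fasted replicate 1 (0.222 TPM) lay among the fed ones. It fell by 1.95 and 1.63 on the log2 scale (adjusted p = 0.0039 and 0.0145). Aurka, the centrosome kinase, fell by 1.46 and 1.30, and Plk1, polo-like kinase 1, by 1.45 and 1.14. Without Plin2-null fed replicate 2, none of Aurka (-1.06), Aurkb (-1.08) and Plk1 (-0.75) was called in Plin2-null livers (adjusted p = 0.0554, 0.0842 and 0.159). Plk1 also lost that call without Plin2-null fed replicate 1 (-1.14) and without fasted replicate 1 (-1.15), 2 (-1.13), 3 (-0.99) or 4 (-1.16), at adjusted p of 0.052 to 0.0791, and under limma voom and with no filter on low counts. Birc5, survivin, was not called, at -1.01 ± 0.45 (adjusted p = 0.0774) and -0.66 ± 0.48 (adjusted p = 0.3). These were -0.50 without Plin2+/+ fed replicate 4 and -0.32 without Plin2-null fed replicate 2, and the former was called at -1.22 without Plin2+/+ fed replicate 5 (adjusted p = 0.0337). Scaling by library size alone also called Birc5 lower in Plin2+/+ livers (-1.19, adjusted p = 0.0388).

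Spindle motors and midzone genes fell in 5 of 6 cases in Plin2+/+ and 4 of 6 in Plin2-null livers. Prc1, which bundles microtubules in the midzone, stood at 0.477, 0.487, 0.291, 0.645 and 0.231 TPM in fed and 0.107, 0.102, 0.0627, 0.0581 and 0.084 TPM in fasted Plin2+/+ livers, and at 0.335, 0.775, 0.303, 0.238 and 0.222 and 0.0796, 0.131, 0.0543, 0.184 and 0.164 TPM in Plin2-null livers. No fasted liver reached a fed one, and the log2 fold changes were -2.14 ± 0.36 (SE; adjusted p = 5.2e-05) and -1.33 ± 0.35 (SE; adjusted p = 0.00436). Tpx2, which activates Aurora A on the spindle, fell by 1.62 and 1.66, and Kif11, the motor that pushes spindle poles apart, by 0.88 and 1.10. Nusap1, a spindle microtubule binder, fell by 1.82 in Plin2+/+ livers and had -0.83 ± 0.36 in Plin2-null livers (adjusted p = 0.0773). That value was -0.31 (adjusted p = 0.469) without fed replicate 2, and it was called at -0.97 (adjusted p = 0.0473) without fed replicate 5. Library size alone (-1.07, adjusted p = 0.0267) and log2(TPM + 0.1) (-0.75, adjusted p = 0.042) also called it.

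The cytokinesis motors differed in which genotype passed the test. Kif20a fell by 1.15 on the log2 scale in Plin2+/+ livers (adjusted p = 0.0137) and had -0.40 ± 0.37 in Plin2-null livers (adjusted p = 0.425). Kif23 had -0.69 ± 0.39 in Plin2+/+ (adjusted p = 0.163) and -1.26 ± 0.39 (SE; adjusted p = 0.0142) in Plin2-null livers. In Plin2+/+ livers Kif20a was not called without fed replicate 4 (-0.75, adjusted p = 0.0741), nor was Kif11 without that library (-0.61, adjusted p = 0.0749) or fasted replicate 3 (-0.73, adjusted p = 0.0535). The Plin2-null value of Kif20a was -0.05 without fed replicate 2, and Kif23 was not called without Plin2-null fed replicate 2 (-0.70, adjusted p = 0.0995). The test of the difference between genotypes called neither motor (adjusted p = 0.495 and 0.641).

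Plin2 loss was then compared within each feeding state. In fed livers, no member passed (edgeR's quasi-likelihood test), and 0.0184% of all genes did. At an unadjusted p under 0.05 there was 1 member, Ccne2, with a log2 fold change of -0.81 ± 0.28 for Plin2-null over Plin2+/+ (unadjusted p = 0.00886), against 4.25% of all genes. DESeq2 and limma voom called 0 members. Tk1, for example, was 9.92 ± 3.24 TPM in Plin2+/+ and 8.72 ± 2.35 TPM in Plin2-null fed livers (SD, n = 5), and Mki67 1.06 ± 0.461 and 1.11 ± 0.609 TPM, differences within the spread of either group. The median log2 fold change was -0.15 for replication and -0.20 for mitosis genes.

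In fasted livers, edgeR called 0 of 49 members, against 3.24% of all genes. An unadjusted p under 0.05 was reached by 7 replication genes and 1 mitosis gene (Mcm2, Mcm3, Mcm4, Fen1, Ccnd1, Prim1, Ccne2 and Nusap1), against 24.3% of all genes. Of these, Prim1 (-0.43 ± 0.19) and Ccne2 (-0.62 ± 0.28) were lower and the other 6 higher in Plin2-null livers, and the median log2 fold change was 0.19 in either set. Ccnd1 was 21.5 ± 13.2 TPM in Plin2+/+ and 37.5 ± 11.0 TPM in Plin2-null fasted livers, a log2 fold change of 0.90 ± 0.31 (SE; adjusted p = 0.097) with overlapping groups. Fen1 was 0.865 ± 0.316 and 1.43 ± 0.493 TPM, a log2 fold change of 0.78 ± 0.26 (SE; adjusted p = 0.0851). DESeq2 called Ccnd1 and Fen1 (adjusted p = 0.0317 and 0.0462), as did edgeR without Plin2+/+ fasted replicate 5, while limma voom called 0 members. Scaled counts did not overlap between genotypes for Mcm2, Mcm4 and Nusap1, against 1.87% of all genes higher without overlap. All were higher in Plin2-null fasted livers (0.79 ± 0.29, 0.42 ± 0.17 and 1.02 ± 0.41). On the TPM scale Mcm2 overlapped (0.357 to 0.735 TPM in Plin2+/+ and 0.523 to 1.15 TPM in Plin2-null fasted livers). So did Mcm4 (1.35 to 2.68 and 1.96 to 2.92 TPM), whereas Nusap1 did not.

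**Figure D5:**
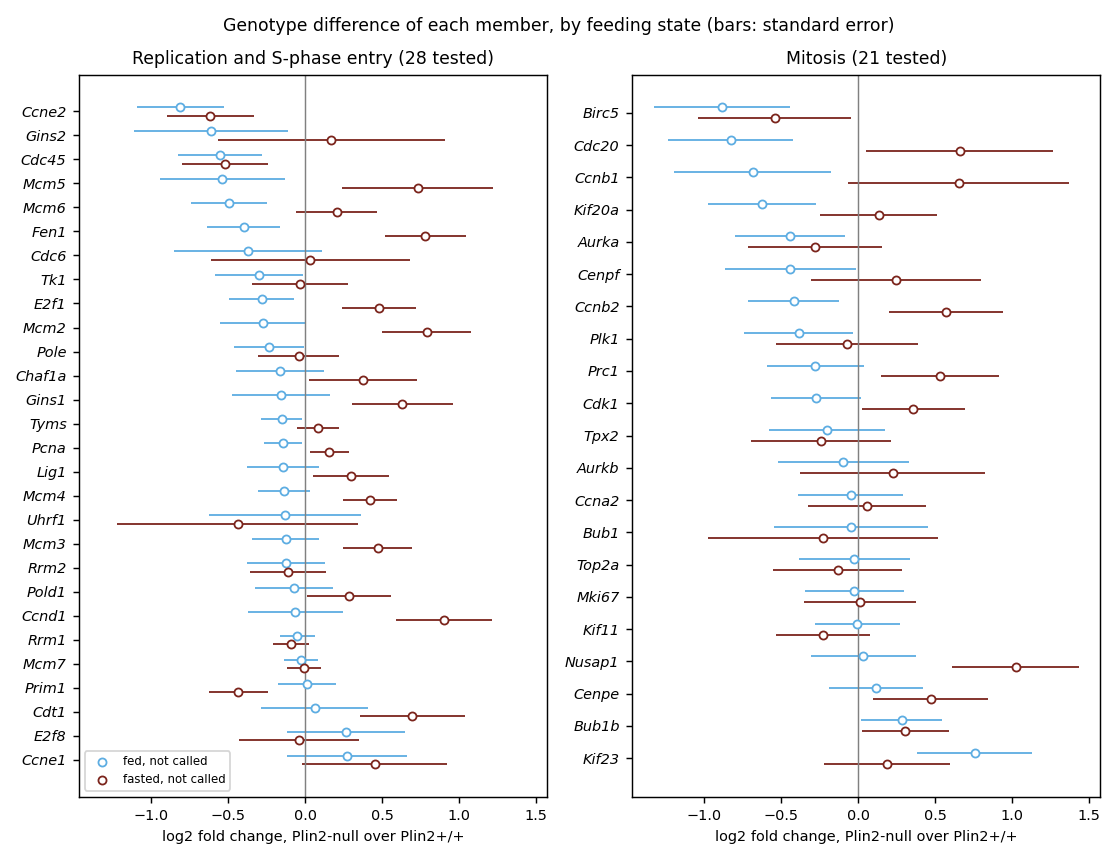
Log2 fold change of Plin2-null over Plin2+/+ livers (x axis, edgeR) with its SE, for each gene tested, in fed and fasted livers; filled points would have an adjusted p under 0.05, and there are none. Ccnd1 (0.90) and Fen1 (0.78) lie above 0 in fasted livers, and Prim1 (-0.43) and Ccne2 (-0.62) below.

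The difference between the fasting effects of the genotypes was tested directly. edgeR called 0 members, and 0% of all genes, where the smallest adjusted p was 0.0602. At an unadjusted p under 0.05 there were 6 members (Mcm2, Mcm4, Fen1, E2f1, Ccnd1 and Ccnb2), against 13.8% of all genes, and DESeq2 and limma voom called 0 members. The largest of these was Fen1, whose log2 fold change was 1.18 ± 0.35 less negative in Plin2-null livers (adjusted p = 0.239). Of the genes called lower in Plin2+/+ livers, 15 of 16 replication and 15 of 19 mitosis genes had a less negative value in Plin2-null livers, as did 2793 of 3541 genes overall. Those genes were selected by their fall in Plin2+/+ livers, so these counts carry no test.

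Other genes of the same processes were read from lists of related genes. Their counts stand against 20.9% of all genes higher and 21.7% lower with fasting in Plin2+/+ livers, and 18.0% and 18.1% in Plin2-null livers. Orc3, Ccnf, Foxm1 and the single markers given for other cell types were picked after their values were seen. Of 39 other replication genes, 21 fell and 1 rose (Orc3, an origin recognition subunit) with fasting in Plin2+/+ livers, and 14 fell and 3 rose in Plin2-null livers, with medians of -0.54 and -0.43. The smallest adjusted p in Plin2+/+ belonged to Dnmt1, the maintenance DNA methyltransferase, which fell by 0.93 on the log2 scale, and the clamp loader subunit Rfc5, which fell by 1.29. Of 39 other mitosis genes tested, 27 fell and 3 rose in Plin2+/+ livers, and 18 fell and 3 rose in Plin2-null livers, with medians of -1.04 and -0.79. Spc24, of the outer kinetochore, fell by 1.65, Cks1b, a CDK1 subunit, by 2.16, and Cdca8, borealin, by 1.80 in Plin2+/+ livers. Ccnf, cyclin F, rose by 1.06 and 0.86 in Plin2+/+ and Plin2-null livers, and the kinetochore gene Spc25 rose by 1.31 in Plin2-null livers.

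Among regulators of these genes, the share called was near that of all genes. Of 17 E2F, RB and DREAM genes, 4 rose and 3 fell in Plin2+/+ livers, and 3 rose and 4 fell in Plin2-null livers, 41.2% in each against 42.6% and 36.1% of all genes. E2f2, an activator like E2f1, fell by 3.97 ± 0.37 and 1.91 ± 0.31 on the log2 scale (SE; adjusted p = 2.49e-08 and 6.03e-05). Rbl1, the p107 pocket protein, fell by 1.26 and 0.80, whereas Rb1 and Rbl2, the RB and p130 pocket proteins, rose by 0.82 and 0.73 in Plin2+/+ livers. Foxm1, an activator of mitosis genes, fell 2.87-fold in Plin2+/+ and 2.64-fold in Plin2-null livers. Between genotypes in fasted livers 2 of the 17 were called (11.8%, against 3.24% of all genes). Rbl2 was lower in Plin2-null livers (-0.43 ± 0.12, adjusted p = 0.0473), and E2f2 was higher: 0.0396 to 0.0783 TPM (3 to 7 counts) in Plin2+/+ and 0.155 to 0.206 TPM (12 to 18 counts) in Plin2-null livers, a log2 fold change of 1.72 ± 0.41 (SE; adjusted p = 0.0299).

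D-type cyclins split by gene. Ccnd2 fell by 0.83 and 0.90 on the log2 scale with fasting, and Ccnd3 rose by 0.82 and 0.83, beside the fall of Ccnd1 in Plin2+/+ livers. Cdk4, their kinase partner, rose by 0.36 and 0.63. Of 12 CDK inhibitor and arrest genes tested, 6 rose and 1 fell in each genotype. Over all genes tested, 20.9% rose and 21.7% fell in Plin2+/+ livers, and 18.0% rose and 18.1% fell in Plin2-null livers. Cdkn1a, the inhibitor p21, stood at 15.1 ± 11.5 TPM in fed and 101 ± 33.0 TPM in fasted Plin2+/+ livers, and at 11.3 ± 5.07 and 81.9 ± 19.1 TPM in Plin2-null livers (SD, n = 5), rising by 2.91 ± 0.41 and 3.15 ± 0.42 on the log2 scale (SE; adjusted p = 2.14e-05 and 1.39e-05). Gadd45b rose by 3.64 and 3.53, and Gadd45a, another stress-induced arrest gene, fell by 2.13 in Plin2+/+ livers.

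Markers of other liver cells were read beside these genes; each count below stands against the 42.6% of all genes called with fasting in Plin2+/+ (21.7% lower) and 36.1% in Plin2-null livers (18.1% lower). Kupffer cell markers summed to 470 to 534 TPM in fed and 234 to 318 TPM in fasted Plin2+/+ livers, and to 359 to 926 and 227 to 398 TPM in Plin2-null livers, and 6 of 8 fell in Plin2+/+ and 5 of 8 in Plin2-null livers. The 926 TPM was Plin2-null fed replicate 2, which also held the highest mitosis values and 106 TPM of Marco, a macrophage scavenger receptor. Plin2+/+ fed replicate 4, which stood apart too, held 534 TPM of Kupffer cell markers (next 517). It also led fed Plin2+/+ livers in hepatocyte (167891 TPM, next 130436), stellate (248, next 164) and sinusoidal endothelial markers (191, next 143). The same held for B and T cell markers, but not for cholangiocyte, erythroid or neutrophil markers. Cholangiocyte markers went from 47.0 to 80.0 TPM in fed to 13.8 to 27.2 TPM in fasted Plin2+/+ livers, and from 42.4 to 77.1 to 13.1 to 31.7 TPM in Plin2-null livers, most of it Spp1, while Krt19 and Epcam stayed near 1 TPM; 3 of 5 and 1 of 5 fell. B and plasma cell markers fell in 5 of 6 genes tested in Plin2+/+ and 1 of 6 in Plin2-null livers (6.51 to 11.1 against 2.46 to 5.27 TPM, and 5.84 to 9.21 against 2.79 to 7.99 TPM). T and NK cell markers fell in 2 of 8 genes and rose in 1 in Plin2+/+ livers, and fell in 1 of 8 in Plin2-null livers, shares of 37.5% and 12.5% that lie below those of all genes (4.89 to 8.08 against 3.33 to 5.66 TPM, and 4.25 to 7.20 against 2.99 to 4.94 TPM).

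Erythroid precursor markers summed to 15.1 to 31.9 TPM in fed and 5.33 to 8.21 TPM in fasted Plin2+/+ livers, and to 14.3 to 20.2 and 5.97 to 10.0 TPM in Plin2-null livers. Nearly all of this was Alas2, while Gata1 did not exceed 0.0279 TPM, and Gata1, Rhag and Hemgn were at 0 in all 5 fasted Plin2+/+ livers. Of 9 neutrophil markers 2 could be tested, S100a8 and S100a9, and both rose in both genotypes. Summed over all 9, the level was 3.88 to 6.24 TPM in fed and 5.17 to 9.75 TPM in fasted Plin2+/+ livers, and 4.83 to 11.9 and 14.9 to 26.9 TPM in Plin2-null livers. Stellate cell markers fell in 4 of 5 and 3 of 5 genes (151 to 248 against 137 to 196 TPM, and 161 to 199.9 against 117 to 193 TPM), and sinusoidal endothelial markers rose in 2 and fell in 2 of 5 in Plin2+/+ livers (135 to 191 against 147 to 191 TPM), and rose in 2 and fell in 1 in Plin2-null livers (119 to 162 against 91.9 to 174 TPM). The part of these cell types in the fall of the replication and mitosis genes was not tested.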

How the data were processed

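Libraries from 20 mouse liver samples were strand-specific and made from mRNA, per the labels. The authors deposited whole-number read counts per gene, not normalized, and TPM values computed from them. Per the submitters' processing notes, HISAT2 1.2.1 and featureCounts 1.4.6-p1 were used and the build listed is GRCh38, although the mice and gene identifiers are murine; no source used here names the annotation or the strand setting. In 7109 genes with over 200 counts in every library, the ratio of counts to TPM followed 1 gene length (largest relative SD 1.04e-09), and each of the 20 TPM columns followed its own library. Symbols were matched for 55141 of 55487 gene identifiers.

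Counts were fitted with edgeR 4.0.16 (R 4.3.3) over all 20 libraries with 1 coefficient per group: its default filter on low counts, TMM scaling, robust quasi-likelihood fits and tests, and Benjamini-Hochberg adjustment over all 16312 genes tested. An adjusted p under 0.05 was called; the SE is the log2 fold change divided by the square root of F. No repeat of a library was found among 40 within-group pairs (smallest chi-square per degree of freedom 45.3). Alternatives used DESeq2 1.42.0, limma 3.58.1 (voom, and log2(TPM + 1) or log2(TPM + 0.1)), other scalings and filters, removal of the GC trend, only the groups compared, and each library left out. The scripts were tested on simulated data. Overlap of groups was counted on TMM-scaled CPM; single genes are described on TPM.

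Members, gene lists and tests were chosen with earlier results of these data known. All members could be named; of each related or marker list, up to 4 called genes with the smallest adjusted p per comparison. Gene positions came from GENCODE on GRCm38 and promoter windows from RefSeq GRCm38.p6; words were searched on both strands.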

Additional observations from a re-analysis of the deposited data

Results flagged for a closer look

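In each group of 5 livers, each tested member was examined for a liver whose TPM lay far from the other 4, its gap to the nearest exceeding 0.71 of the group's whole range. Of 196 sets of 5 values, 27 were picked out (13.8%). About 1 in 20 would be picked out by chance among normally distributed values. The chance rate for TPM of genes with few counts was not measured. The genes share libraries, so the 27 are not separate findings. Plin2-null fed replicate 2 accounted for 18, each time as the highest. Among replication genes it held Mcm3 at 6.32 TPM (next 3.24), Mcm5 at 3.26 (1.23), Mcm6 at 3.94 (2.12), Cdc6 at 0.578 (0.162), Gins2 at 0.834 (0.239), Pcna at 24.2 (18.1), Lig1 at 2.97 (1.6), Uhrf1 at 1.85 (0.422) and Ccne1 at 0.494 (0.327). Among mitosis genes it held Ccna2 at 1.43 TPM (next 0.543), Top2a at 1.99 (0.677), Mki67 at 2.19 (0.965), Cenpf at 0.213 (0.101), Bub1 at 0.483 (0.165), Aurkb at 0.803 (0.252), Kif23 at 1.61 (0.633), Nusap1 at 1.23 (0.384) and Prc1 at 0.775 (0.335).

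Plin2+/+ fed replicate 4 was picked out for 4 mitosis genes, as the highest: Cdk1 at 1.3 TPM (next 0.766), Birc5 at 1.64 (0.584), Kif11 at 0.894 (0.506) and Kif20a at 1.79 (0.801). Single values in other livers were Prim1 at 3.24 TPM in Plin2+/+ fasted replicate 1 (next 2.22), Chaf1a at 0.148 in Plin2+/+ fasted replicate 5 (0.0755) and Aurkb at 0.222 in Plin2-null fasted replicate 1 (0.076), each the highest. The lowest of their groups were Kif20a at 0.242 TPM in Plin2+/+ fasted replicate 4 (next 0.342) and Tyms at 0.943 in Plin2-null fasted replicate 3 (1.39).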

How the results depend on the processing

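No member changed direction past the threshold under any alternative run. The number of mitosis genes called after fasting was 19 in Plin2+/+ and 16 in Plin2-null livers; requiring 1 CPM in 5 libraries left 8 of them to test and gave 7 and 7. Leaving out 1 library at a time gave 15 to 20 and 8 to 18 mitosis genes, the 8 without Plin2-null fed replicate 2, and 17 to 19 and 9 to 14 replication genes. Without Plin2+/+ fed replicate 4 and Plin2-null fed replicate 2 together, 10 mitosis genes were called in Plin2-null livers, and 1 (Nusap1) between genotypes in fasted livers, where the main count was 0. Between genotypes in fasted livers, DESeq2 called 2 replication genes and leaving out 1 library gave 0 to 2 (2 without Plin2+/+ fasted replicate 5), against 0. The cause of these shifts was not tested. Other totals of members called stayed within 1.5 times, but counts in 1 direction did not: leaving out 1 library gave 5 to 11 replication genes that fell in Plin2-null livers (main 10), the 5 without fed replicate 2, and 2 to 4 that rose (main 3), and both library size alone and log2(TPM + 0.1) gave 15 that fell and 1 that rose there, and 1 that rose in Plin2+/+ livers (main 2). Over all genes, DESeq2 called 1433 between genotypes in fasted livers against 528, and 63 for the difference of fasting effects against 0. On log2(TPM + 0.1), 1569 genes were higher and 3723 lower after fasting in Plin2+/+, and 1008 and 4561 in Plin2-null livers. Counts were low in both sets: Orc1 had 0 to 3, Cdc6 2 to 46, Bub1 0 to 32 and Plk1 1 to 24 counts a library. No paired analysis was possible because the labels give the livers no shared replicate numbers, litters or batches across groups.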
